A study of Homo sapiens and Mus musculus with 33 samples.

Results

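In mouse colon epithelium, 450 of 7964 expressed genes (5.65%) had no peak of histone H3 lysine 18 crotonylation (H3K18cr) inside the gene or within 1 kb of it. These genes included Fcgbp, a mucus protein gene of goblet cells, and all 6 expressed genes on a list of enteroendocrine cell markers. They also included 5 of the 6 subunits of the MCM replicative helicase. A gene was counted as expressed when its mean over 3 mice was at least 20 CPM (the read count of a gene as a share of the library, scaled to the same total in each mouse), the mitochondrial chromosome left out. The count of 450 depends on the limits chosen, with 703 genes at a minimum of 10 CPM and 157 at 50 CPM. It was 1648 with the H3K18cr list cut to its peaks of higher enrichment. In all, 460 expressed genes (5.78%) lacked a peak at the limits used. Of these, 10 were set aside and are not described further, namely the goblet cell genes Muc2, Tff3, Spink4 and Zg16 and 6 ribosomal protein genes or pseudogenes. The 450 genes were thus chosen by measured values, their RNA level and the absence of an H3K18cr peak, so both are given as descriptions without a test.

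The colon libraries came from EDTA-released epithelium of untreated male C57BL/6 mice kept pathogen-free, whose age is not given in the sources used here. RNA was sequenced from 3 mice, H3K18cr chromatin immunoprecipitation (ChIP) gave 2 libraries with 2 inputs, and H3K4me3 ChIP gave 3 libraries with 1 input. The methods describe colons pooled for ChIP and the study elsewhere speaks of H3K18cr ChIP on cells from 2 mice, so whether each of these libraries stands for 1 mouse or a pool is not settled. The other libraries came from HCT116, a human colon carcinoma cell line, kept for 18 h in DMSO, the vehicle, or in 5 µM MS275 (entinostat), an inhibitor of class I histone deacetylases, with 4 RNA libraries and 3 libraries each of H3K18cr and H3K18ac (acetylation of the same lysine) per treatment and 1 input per treatment. For HCT116 ChIP the methods name biological and technical replicates where they describe real-time PCR. For sequencing they name 2 replicates of HCT116 H3K18cr, where 3 libraries per treatment were deposited. They do not tie the libraries to separate cultures, so p-values there measure only the spread between libraries, which may be technical.

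Histone crotonylation is laid down from crotonyl-CoA by enzymes that also acetylate histones, and class I deacetylases remove it. Like acetylation it is found at the starts of active genes, where trimethylated lysine 4 of histone H3 (H3K4me3) is the most widely used mark of a start in use, above all at promoters rich in CpG. The colon epithelium is made mainly of absorptive colonocytes and mucus-secreting goblet cells, with few hormone-producing enteroendocrine cells, and stem and dividing cells lie in the lower crypt. A whole-tissue library averages over all of them, so fewer cells of a type and less RNA or less of a mark per cell cannot be told apart here.

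The colon RNA libraries held 8166406, 10707901 and 9701476 counts, and log2 CPM of expressed genes correlated between mice with r from 0.983 to 0.985. Scaled reads in peaks came to 3482707 and 5595946 in the H3K18cr libraries and from 2541429 to 5230629 in the H3K4me3 libraries. Epithelial markers were high, with a summed level of 7935 to 9386 CPM over 7 genes. No gene on the lists for B and plasma cells, T and NK cells, fibroblasts and muscle, endothelium or pancreatic acinar cells reached a mean of 20 CPM, although the muscle gene Des had 28.0 CPM in mouse 1, and the highest summed level over one of these lists in one mouse was 83.3 CPM. Among the 450 genes, Cd74, the invariant chain of MHC class II that the myeloid list holds, had 24.6, 32.4 and 34.6 CPM. The myeloid list summed to 88.3 to 96.2 CPM over 12 genes. Hbb-b1, a haemoglobin chain, had 29.6, 18.3 and 33.2 CPM. The part of blood cells in these 2 genes was not tested.

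Promoters of 8 of the genes are shown as examples of 2 helicase subunits and of hormone, granule, mucus and antimicrobial genes. They do not represent the set, since 6 of the 8 carry a TATAA near the start, which is rare among the members. Each line gives the 200 bases before the transcription start of GENCODE M21, read 5′ to 3′ on the gene's strand from the GRCm38 genome. Capitals mark every CpG and, where there is one, a TATAA that begins 15 to 45 bases before the start. None of the 8 windows overlaps an annotated exon. They are Mcm6 (chr1:128359665-128359864, minus strand), Mcm2 (chr6:88898781-88898980, minus), Chga (chr12:102554769-102554968, plus), Gcg (chr2:62483651-62483850, minus), Pyy (chr11:102107833-102108032, minus), Fcgbp (chr7:28071036-28071235, plus), Reg3g (chr6:78468873-78469072, minus) and Retnlb (chr16:48816656-48816855, plus).
Mcm6: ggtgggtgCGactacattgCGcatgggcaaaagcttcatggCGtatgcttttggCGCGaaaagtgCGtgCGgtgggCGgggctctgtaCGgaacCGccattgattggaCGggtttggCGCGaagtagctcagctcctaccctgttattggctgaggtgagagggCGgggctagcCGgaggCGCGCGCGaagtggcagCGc
Mcm2: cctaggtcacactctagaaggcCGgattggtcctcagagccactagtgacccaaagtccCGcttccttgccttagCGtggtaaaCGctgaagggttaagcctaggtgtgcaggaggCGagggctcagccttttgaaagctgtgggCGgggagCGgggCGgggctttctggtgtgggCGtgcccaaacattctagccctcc
Chga: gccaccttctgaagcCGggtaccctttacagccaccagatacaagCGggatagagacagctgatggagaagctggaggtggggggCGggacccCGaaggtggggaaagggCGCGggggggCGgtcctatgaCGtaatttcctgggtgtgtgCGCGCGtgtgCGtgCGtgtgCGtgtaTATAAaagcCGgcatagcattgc
Gcg: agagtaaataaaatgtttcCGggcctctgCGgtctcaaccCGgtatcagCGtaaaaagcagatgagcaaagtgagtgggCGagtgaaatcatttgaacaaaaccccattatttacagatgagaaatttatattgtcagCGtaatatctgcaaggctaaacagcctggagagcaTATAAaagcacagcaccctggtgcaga
Pyy: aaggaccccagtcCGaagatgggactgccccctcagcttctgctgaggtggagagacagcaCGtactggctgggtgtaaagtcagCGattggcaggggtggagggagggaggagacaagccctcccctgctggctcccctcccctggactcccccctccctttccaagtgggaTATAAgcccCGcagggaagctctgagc
Fcgbp: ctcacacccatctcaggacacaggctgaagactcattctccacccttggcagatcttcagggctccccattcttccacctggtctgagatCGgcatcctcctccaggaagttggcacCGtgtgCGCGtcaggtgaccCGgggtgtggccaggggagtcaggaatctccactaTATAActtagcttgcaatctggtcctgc
Reg3g: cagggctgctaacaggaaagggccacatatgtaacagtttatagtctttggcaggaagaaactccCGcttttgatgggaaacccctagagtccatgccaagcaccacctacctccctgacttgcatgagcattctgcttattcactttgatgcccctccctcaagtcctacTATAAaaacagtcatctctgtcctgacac
Retnlb: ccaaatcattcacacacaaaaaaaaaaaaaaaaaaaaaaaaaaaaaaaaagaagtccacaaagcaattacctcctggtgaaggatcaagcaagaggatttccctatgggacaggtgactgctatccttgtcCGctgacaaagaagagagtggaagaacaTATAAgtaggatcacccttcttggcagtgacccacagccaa
The windows of Mcm6 and Mcm2 held 20 and 9 CpG and no TATAA at that place. The window of Chga held 15 CpG and a TATAA 23 bases before the start. Those of Gcg, Pyy and Fcgbp held 6, 4 and 5 CpG with a TATAA 27, 27 and 28 bases before the start, and those of Reg3g and Retnlb held 1 CpG each with a TATAA 29 and 41 bases before it.

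The lack of a called H3K18cr peak did not mean the lack of every mark of an active start. Here and below, a gene that lacks or is without H3K18cr or H3K4me3 is one with no called peak. That does not show that the mark is absent. An H3K4me3 peak lay within 1 kb of 330 of the 450 genes, which is 73.3% (95% Wilson interval 69.1% to 77.2%). Of the 7504 expressed genes with an H3K18cr peak, 7359 had one, which is 98.1% (97.7% to 98.4%). Genes are not replicates and there was 1 peak list for all libraries, so the difference between these shares was not tested, and the intervals cover counting error only. Among the 330 genes, the transcription start itself lay within 1 kb of an H3K4me3 peak for 318 of the 325 that matched GENCODE.

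The H3K4me3 peaks of these genes were smaller than those of genes with H3K18cr. The peak with the most reads at a gene held a median of 152 scaled reads, against 280 at genes with an H3K18cr peak, and had a median width of 1350 bases, against 1950. Above input, on the scale of log2 of ChIP plus 1 over input plus 1, the medians were 1.63, 2.38 and 2.73 in libraries 1, 2 and 3, against 2.09, 2.86 and 3.26. The median was lower in each of the 3 libraries, while the ranges of the gene sets overlapped. The sets also differed in median gene length, 13842 against 26208 bases, and in median RNA level, 39.4 against 63.9 CPM. A longer gene offers more room for peaks from which the largest is taken. The part of length or RNA level in this difference was not tested.

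**Figure D1:**
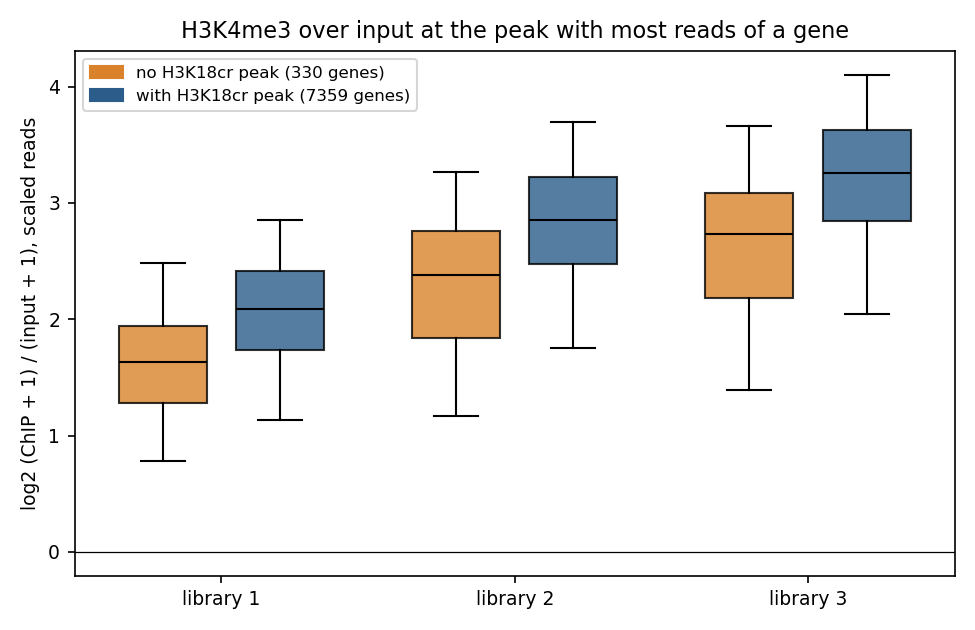
H3K4me3 over input, as log2 of ChIP plus 1 over input plus 1 in scaled reads, at the peak with most reads of each gene, in each of 3 colon libraries, for 330 genes without and 7359 genes with an H3K18cr peak. Lines mark medians, boxes the quartiles and whiskers the 5th and 95th percentiles. The medians of genes without an H3K18cr peak were 1.63, 2.38 and 2.73, each below that of the other genes in the same library. The sets also differed in gene length and RNA level.

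Among the members of highest H3K4me3 read count were pairs with a shared promoter. Polr2b, the second largest subunit of RNA polymerase II, and its divergent neighbour Noa1, a mitochondrial GTPase, shared a peak at chr5:77308651-77311200 (GRCm38) with 331, 519 and 752 scaled reads against 63 in the input. Banf1, which bridges chromatin and the nuclear lamina, and Eif1ad shared a peak at chr19:5365501-5367900 with 223, 546 and 698 scaled reads and 63 in the input. The peak of Sfi1, a centrosome gene, held 901, 1024 and 1140 scaled reads, but its input held 678. At Sfi1 the ChIP libraries were thus less than 1 log2 unit above input, at 0.41, 0.59 and 0.75.

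The expressed markers of enteroendocrine cells all lacked an H3K18cr peak, where 5.78% of all expressed genes lacked one. The list held 10 genes, 6 of them were expressed, and none of the 6 had a peak. Chgb and Chga, which encode chromogranins of hormone granules, had 189, 203 and 178 CPM and 136, 142 and 133 CPM in mice 1, 2 and 3. Gcg, which encodes proglucagon, had 110, 112 and 112 CPM. Pyy, which encodes peptide YY, had 74.6, 58.7 and 61.0 CPM. The coefficient of variation (CV) between mice was 0.00670 for Gcg and 0.132 for Pyy, which was highest in mouse 1. Insl5, a peptide hormone of the distal colon, had 59.0, 33.8 and 27.5 CPM, highest in mouse 1. Tph1, the enzyme that commits tryptophan to serotonin synthesis in these cells, had 33.8, 27.2 and 28.8 CPM.

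Of the 6 enteroendocrine genes, Chgb and Chga had an H3K4me3 peak. At Chgb it covered the start (chr2:132781201-132782250) with 46.0, 61.5 and 77.2 scaled reads against 16 in the input. At Chga it lay inside the gene (chr12:102562351-102564000), with 52.9, 82.9 and 112 scaled reads against 27 in the input, while the gene starts at base 102554969. The nearest H3K18cr peak was 51372 bases from Chgb, 10974 from Chga, 29451 from Gcg and 17276 from Pyy.

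Goblet cell genes were divided. Of 14 expressed markers 7 lacked a peak, 3 of them within the set (Fcgbp, Ang4 and Retnlb) and the others the 4 genes set aside. The markers with a peak included Agr2, Spdef, Atoh1 and Klk1. Fcgbp, which binds and crosslinks mucins, had 2492, 3894 and 5782 CPM, the highest CPM of the set, with the lowest value in mouse 1 and the highest in mouse 3. An H3K4me3 peak lay inside Fcgbp (chr7:28104751-28105050) with only 13.8, 10.7 and 23.1 scaled reads against 6 in the input, and far from the start at base 28071236. Ang4, an antimicrobial ribonuclease, had 14.4, 73.3 and 267 CPM, and Retnlb, a goblet cell antimicrobial also called resistin-like beta, had 33.2, 85.4 and 197 CPM. These 3 goblet genes were lowest in mouse 1 and highest in mouse 3. Of the goblet markers with a peak, Clca3, Atoh1 and Klk1 had the same order. Agr2, Spdef, Sytl2 and Bcas1 were instead highest in mouse 2, so the order is not one of goblet markers in general.

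The antimicrobial list, which shares Ang4 and Retnlb with the goblet list, had 4 of 8 expressed genes without H3K18cr and no H3K4me3 peak at any of the 4. The remaining pair, Reg3b and Reg3g, encodes secreted lectins that act on bacteria. Reg3b had 33.7, 335 and 29.3 CPM, and Reg3g had 22.5, 156 and 25.2 CPM. Both were high in mouse 2 and close to each other in mice 1 and 3. The CV between mice was 1.32 for Reg3b, 1.12 for Reg3g, 1.12 for Ang4 and 0.795 for Retnlb, against a median of 0.0958 over the 450 genes. Reg3b and Reg3g lay 3549935 and 3454529 bases from the nearest H3K18cr peak on chromosome 6, and Reg3b was the farthest of the set.

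**Figure D2:**
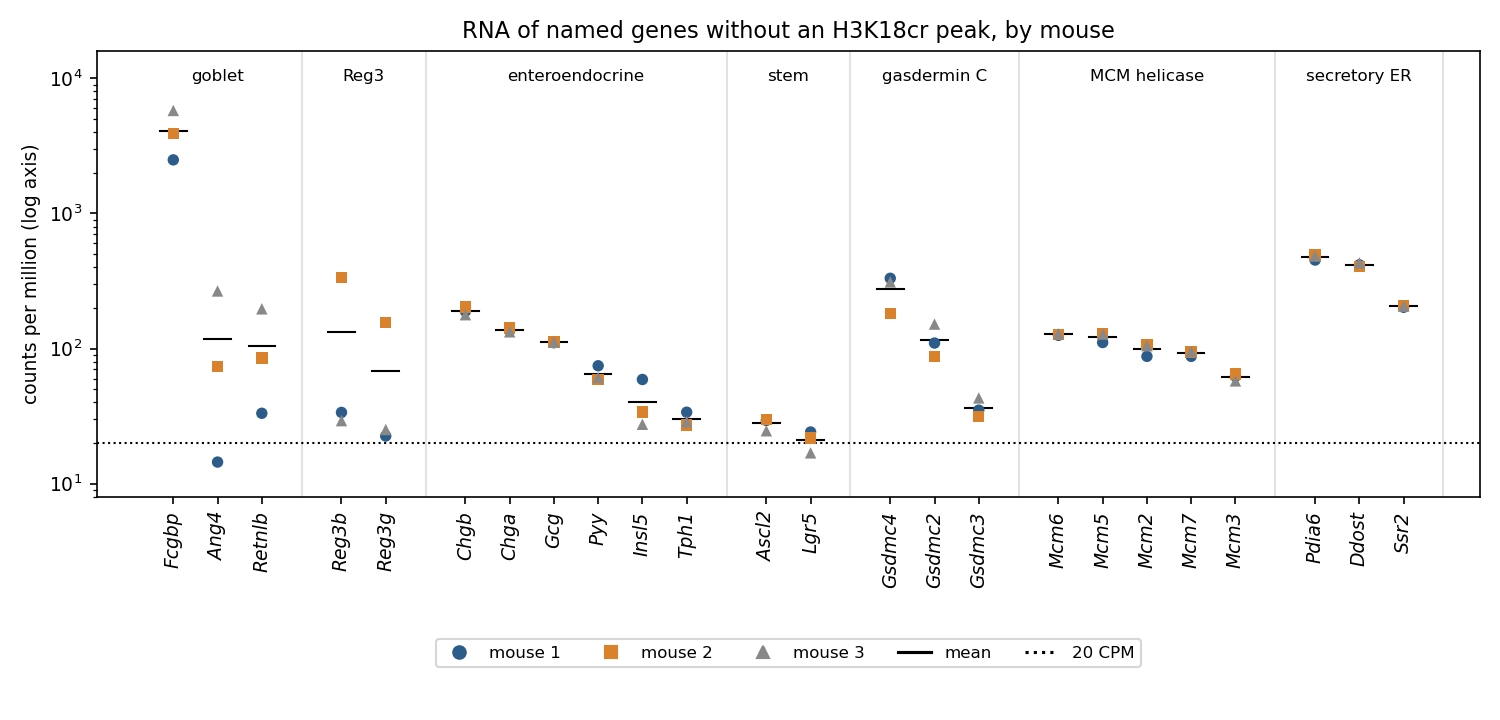
RNA of 24 genes without an H3K18cr peak, in CPM on a log axis, 1 symbol per mouse and a line at the mean of 3 mice; the dotted line is the minimum of 20 CPM. Fcgbp, Ang4 and Retnlb rank alike in the mice, Reg3b and Reg3g are high in mouse 2 alone, and the 5 MCM genes lie close together in all 3 mice.

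Of the 5 expressed genes on the stem and cycling list 2 lacked H3K18cr. Lgr5, the R-spondin receptor that marks crypt base stem cells, had 24.1, 21.8 and 16.9 CPM, just above the minimum on average and below it in mouse 3. Ascl2, the transcription factor of the same cells, had 29.4, 29.9 and 24.6 CPM. Both had an H3K4me3 peak, with 147, 262 and 289 scaled reads against 42 in the input at Lgr5 and 198, 393 and 480 against 61 at Ascl2. The other 3 expressed genes of the list, Axin2, Mki67 and Top2a, had an H3K18cr peak. None of 18 expressed markers of absorptive colonocytes and none of 7 general epithelial markers lacked one. With 5.78% of all expressed genes lacking a peak, these lists are too short to read anything from a count of 0.

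All 3 expressed gasdermin C genes, neighbours on chromosome 15 that belong to a family of membrane pore proteins, lacked both H3K18cr and H3K4me3 at the deposited gene intervals. Gsdmc4 had 331, 182 and 311 CPM, Gsdmc2 had 110, 87.7 and 152 CPM, and Gsdmc3 had 35.0, 31.6 and 43.1 CPM. All 3 genes were lowest in mouse 2. For Gsdmc4 the GENCODE interval is longer than the deposited one and ended 4 bases from an H3K18cr peak. This family, like the replication, mitosis, nucleolar, polymerase, splicing, synthetase and secretory lists below, was chosen after the members had been seen, so its count is a description only.

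Genes of DNA replication were also among the members. Of the 6 subunits of the MCM2-7 helicase, which opens DNA at replication forks, 5 lacked H3K18cr and only Mcm4 had a peak. Mcm6 had 125, 127 and 129 CPM and Mcm5 had 111, 129 and 128 CPM. Mcm2 had 87.6, 107 and 105 CPM, Mcm7 had 87.6, 94.0 and 94.9 CPM and Mcm3 had 62.3, 64.9 and 57.6 CPM. All 5 had an H3K4me3 peak over the start. At Mcm6 that peak held 108, 251 and 278 scaled reads against 37 in the input, and at Mcm7 161, 238 and 312 against 44.

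Over the wider replication families, 12 of 32 expressed genes were members, against 5.65% of all expressed genes, and all 12 had H3K4me3. Beside the helicase these were Rrm1 (the large subunit of ribonucleotide reductase), Pold1, Pola1 and Prim1 (polymerases and primase), Rfc5 (clamp loader), Rpa2 (single-strand DNA binding) and Gins2 (helicase cofactor). Of 23 expressed genes in families of mitosis, 9 were members, all with H3K4me3. They were the cyclins Ccna2 and Ccnb2, the checkpoint genes Bub1b and Mad2l1, Aurkb and its partner Cdca8, and Cdca3, Cenpf and Spc24. Ccna2 had 93.8, 98.6 and 79.6 CPM. Bub1b had 47.1, 52.6 and 34.8 CPM, lowest like Ccna2 in mouse 3. Mki67 and Top2a, which dividing cells also use, had an H3K18cr peak.

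Genes of the general machinery of the cell were present in smaller shares, to be read beside the 5.65% of all expressed genes that were members. Nucleolar families of ribosome assembly gave 7 of 25 expressed genes, among them Nolc1, Nol6, Rrp12, Imp4 and Nop10. The lists gave 3 of 10 for RNA polymerase II subunits (Polr2e, Polr2b, Polr2g), 6 of 34 for splicing, among them Sf3a1, Prpf31 and Snrpd2, and 5 of 32 for aminoacyl-tRNA synthetases, among them Rars and Lars. For translocation into the endoplasmic reticulum and N-glycosylation it was 7 of 32. The latter were Pdia6, a protein disulfide isomerase, Ddost, a subunit of oligosaccharyltransferase, Ssr2, part of the translocon-associated complex, and Dpm2, Alg1, Alg8 and Dolk, which build the glycan on dolichol. Ddost had 417, 407 and 431 CPM, Pdia6 452, 492 and 483, and Ssr2 202, 208 and 206, and all 7 had H3K4me3. The mitochondrial ribosome gave 9 of 66 (13.6%), all with H3K4me3. The proteasome gave 4 of 44 (9.09%), among them the catalytic-ring genes Psmb6 and Psmb3. Another of the 4, Psme2b-ps, is a pseudogene by its symbol and had no H3K4me3 peak.

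The remaining lists are read beside the same share, 5.65% of all expressed genes. Oxidative phosphorylation gave 1 of 79 (Uqcr11), solute carriers 2 of 144, zinc finger genes 2 of 107 and translation factors 3 of 59. No expressed histone gene (10), keratin (5), S100 gene (8), carbonic anhydrase (7) or protease or inhibitor on the list (10) was a member, in lists too short to read anything from a count of 0. Detoxification families gave 4 of 38, namely Ugt1a1, which conjugates bilirubin, at 479, 402 and 417 CPM, and Gstm1, Gstk1 and Ugt2b5. The list of chemokines and interferon response genes gave 4 of 13. Ccl6, a chemokine, had 709, 739 and 687 CPM with no H3K4me3 peak, and Ifitm2, Ifitm3 and Oas1a had means of 115, 29.4 and 21.8 CPM. Metallothioneins, which bind zinc and copper, gave Mt1 and Mt3 of 3 expressed, and Mt1 was highest in mouse 2, at 161 CPM against 99.7 and 95.8.

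**Figure D3:**
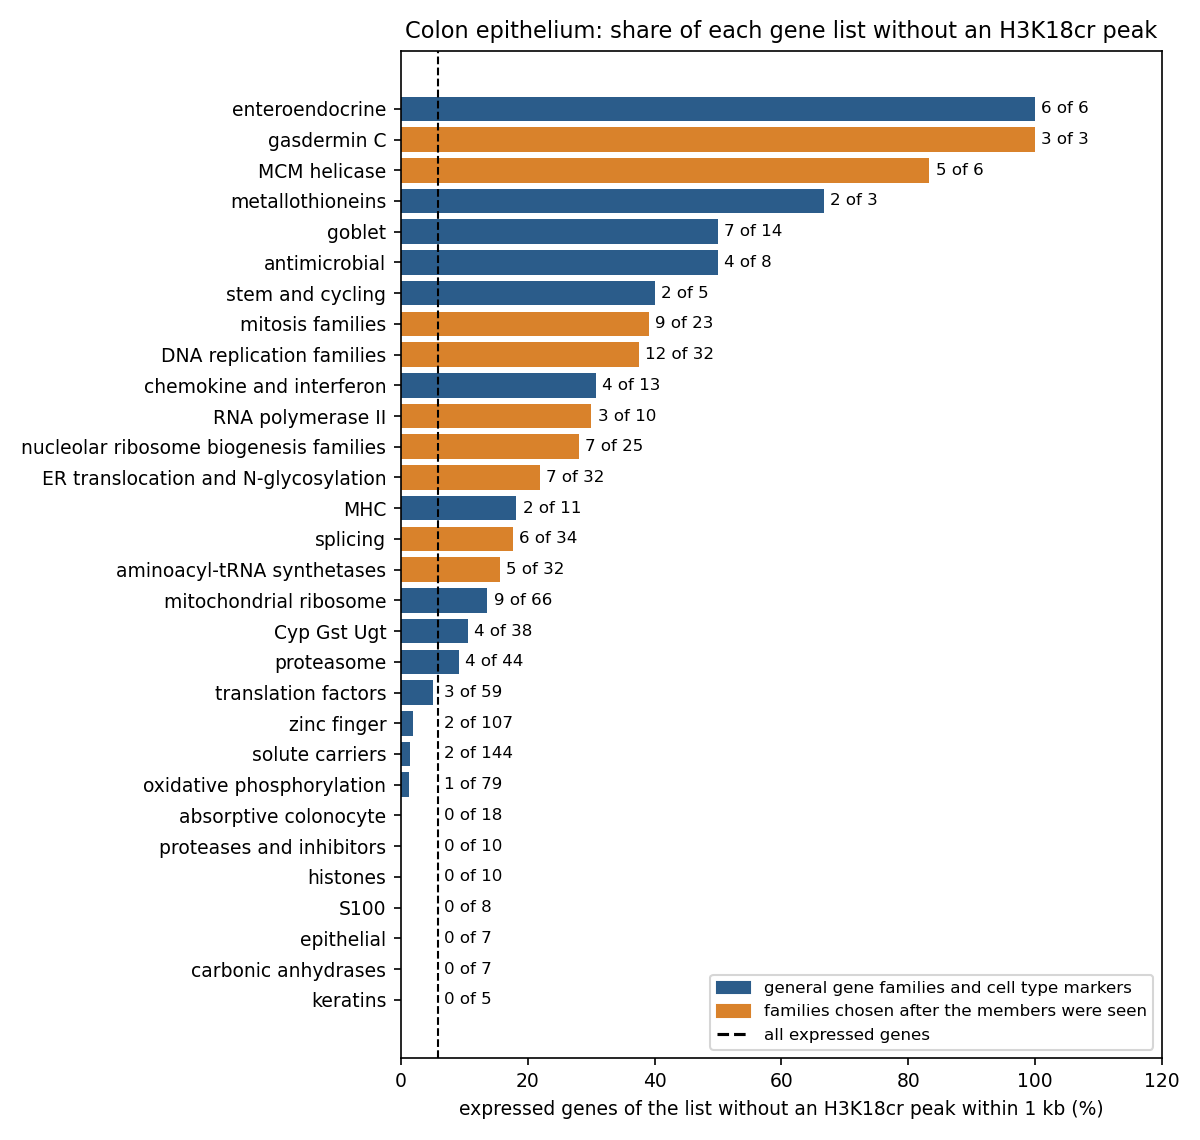
Share of the expressed genes of each list that had no H3K18cr peak within 1 kb, in percent; labels give the number lacking a peak of the number expressed, and the 4 set-aside goblet genes are counted in the goblet bar. The dashed line is the share over all expressed genes, 5.78%. The enteroendocrine list stands at 6 of 6. The absorptive colonocyte list, at 0 of 18, is too short to set apart from the dashed line. Orange lists were chosen after the members were seen.

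Levels between genes were compared per kilobase of annotated exon. The median was 12.1 CPM per kb of exon, against 13.4, while the median without regard to length was 39.7 CPM, against 63.7. Members with H3K4me3 had a median of 10.97 CPM per kb and members without it 32.1, of which the named ones alone had 12.5. On the scale per kb the order was led by 1810030J14Rik, a gene without a described function, at 2622 CPM per kb. Among named genes it went on with Muc3, a membrane mucin of the absorptive surface, at 433, Ccl6 at 397 and Fcgbp at 386. 1810030J14Rik had 1428, 997 and 3859 CPM and Muc3 had 1078, 832 and 614 CPM, so that the former was highest and the latter lowest in mouse 3. Fcgbp, 1810030J14Rik and Muc3 ranged widely over the mice and Ccl6 did not, and the order of the 4 genes was not tested. Lgr5, spread over 10264 exon bases, came to 2.04 CPM per kb.

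Further members of high RNA level follow in turn. Nov had 745, 901 and 615 CPM, with an H3K4me3 peak of 69.0, 74.9 and 90.7 scaled reads against 22 in the input. Cd177, a surface glycoprotein best known from neutrophils, had 438, 709 and 733 CPM, lowest in mouse 1. A4gnt, a glycosyltransferase that caps mucin sugars, had 128, 209 and 195 CPM and was also lowest in mouse 1. Ceacam10, a secreted member of the carcinoembryonic antigen family, showed the same order of the lowest mouse, with 168, 213 and 194 CPM. Sval1, a small secreted protein gene, had 251, 133 and 209 CPM, lowest in mouse 2. Gstm1, a glutathione transferase, had 230, 250 and 240 CPM, Cdc37, an HSP90 cochaperone for kinases, had 203, 208 and 187 CPM, and Bpnt1, a phosphatase that clears the by-product of sulfation, had 144, 136 and 154 CPM.

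The share of members differed with RNA level. It was 9.25% of expressed genes at 20 to 50 CPM, 4.0% at 50 to 100 CPM, 2.52% at 100 to 500 CPM and 2.90% above 500 CPM. With the 10 genes set aside counted too, the share lacking a peak above 500 CPM was 10 of 207, or 4.83%, the difference being the 4 goblet genes left out. A longer gene has more room for a peak under the rule, so length is described only as part of it. The share went from 32.4% of genes under 2 kb to 2.35% of genes over 50 kb. Of the 60 members under 2 kb, 44 were predicted or numbered genes. Such symbols made up 65 of the 450 members, GENCODE types 25 members as pseudogenes, against 1 of the 7504 other genes, and 18 of the 65 (27.7%) had H3K4me3. Only uniquely mapped reads were counted, and reads shared with a near-identical copy make such genes uncertain. Gm9844 and Gm3788 overlap and had the same counts in every mouse.

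At the limits of the rule, Gm9844 and Gm3788 stood just inside at 20.1 CPM, and Zfp654 and Trf, at 19.8 CPM each, just outside. By distance, CAAA01115770.1 and Aen had their nearest H3K18cr peak at 1053 and 1092 bases and were kept, while Wrb and Pwp2, at 999 and 960 bases, were not. The median distance to a peak was 13764 bases. It was 1 to 5 kb for 112 members, 5 to 20 kb for 171, 20 to 100 kb for 123 and more for 44. In 396 members the level was at least 20 CPM in each of the 3 mice.

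The gene interval mattered for some members. For 35 of the 450, the GENCODE M21 interval came within 1 kb of an H3K18cr peak, where the deposited interval did not. They include Gsdmc4 and Papss2, which makes the sulfate donor for mucin and glycosaminoglycan sulfation, and the signalling genes Il6st, Tyk2 and Tiam1. In Papss2 the deposited interval starts at base 32620005 of chromosome 19 and the GENCODE one at 32595790. Srcap and Rbm15b are listed at 2 intervals each, of which 1 has a peak.

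Some members were neighbours. A gap of at most 10 kb joined 51 members in 24 runs, of which the longest were Cops6, Mcm7, Ap4m1 and Taf6 on chromosome 5 (138161071 to 138187451) and Espl1, Myg1 and Aaas on chromosome 15. Genes of a run can share a promoter or peak and are not independent members.

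The share of members among expressed genes was higher on chromosome X than on the autosomes together. There, 29 of 205 expressed genes (14.1%) were members, against 421 of 7755 (5.43%), and the mice were male. In H3K18cr peaks the inputs held 15.8 and 21.1 scaled reads per kb on X and 26.6 and 33.5 on autosomes, and the ChIP libraries held 57.3 and 95.6 on X and 64.3 and 103 on autosomes. H3K4me3 peaks showed the same order, with 48.1, 81.3 and 108 scaled reads per kb on X against 66.1, 106 and 136, and 11.2 against 20.1 in the input. The part of this lower read density in the number of members on X was not tested. Of the 29 genes, 24 had H3K4me3. They include Maged1, the cohesin subunit Smc1a, the deacetylase Hdac6, the H3K9 methyltransferase Suv39h1, the mitochondrial flavoprotein Aifm1 and the colon NADPH oxidase Nox1. Maged1 had 210, 278 and 256 CPM and its nearest H3K18cr peak was 93908 bases away.

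Sequence features, which the rule did not use, differed between members with and without H3K4me3. They were taken from 300 bases around the GENCODE start (250 before and 50 after) for 436 members and 7399 other expressed genes. The ratio of observed to expected CpG had a median of 0.727 over the members (interquartile range 0.489 to 0.865) and of 0.797 (0.620 to 0.933) over the other genes. It was 0.783 in the 325 members with H3K4me3 and 0.384 in the 111 without. Of these 111, sorted by the deposited intervals, 18 had their GENCODE start within 1 kb of an H3K4me3 peak, among them Papss2, Il6st, Arhgap5 and Ash1l. The median ratio was 0.828 in the 18 and 0.334 in the other 93. GC content had a median of 55.3% over the members and 61.7% over the others. A ratio below 0.6 was found for 36.0% of members, for 23.1% of members with H3K4me3, for 73.9% of members without it and for 23.1% of the other genes. In the promoters shown, the ratio over the 300 bases was 0.972 for Mcm6, 0.652 for Mcm2, 0.783 for Chga, 0.357 for Gcg, 0.290 for Pyy and 0.0593 for Reg3g. Among the other helicase genes it was 1.10 at Mcm5, 0.452 at Mcm3 and 0.360 at Mcm7.

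**Figure D4:**
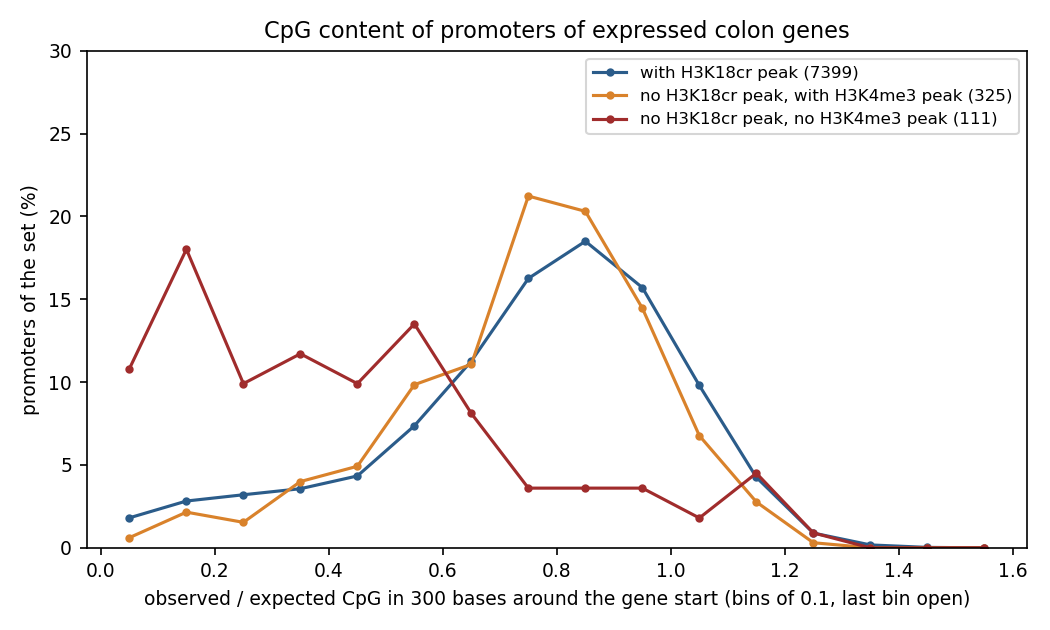
Ratio of observed to expected CpG in 300 bases around the gene start, in bins of 0.1, as percent of the promoters of each set: other expressed genes (7399), members with an H3K4me3 peak (325) and members without (111). Members with H3K4me3 had a median of 0.783 and those without a median of 0.384.

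The motifs searched, on both strands of the same windows, were TATAAA of the TATA box, the CCAAT box, the GC box core GGGCGG and, as an AT-rich caudal-type motif, TTTATG. The letters TTTAT of TTTATG are shared with the reverse complement of TATAAA, so matches of these motifs can overlap. TATAAA stood in 12.6% of member promoters, 6.23% of those of other genes and 6.62% of all 7845 expressed promoters. CCAAT stood in 47.5%, 36.7% and 37.3%, TTTATG in 10.1%, 5.99% and 6.22%, and GGGCGG in 52.5%, 68.0% and 67.0%. Split by H3K4me3, CCAAT stood in 51.4% of member promoters with that mark and 36.0% of those without, and GGGCGG in 61.2% and 27.0%. A TATAA on the gene strand beginning 15 to 45 bases before the start, a window set after the promoters had been seen, was found in 21 of 436 members (4.82%) and 140 of 7399 others (1.89%). It stood in 7 of 325 members with H3K4me3 (2.15%) and 14 of 111 without (12.6%). For TATAAA at the same place it was 8 of 436 members (1.83%) and 78 of 7399 others (1.05%). In named members TATAAA at any place stood in 10.2% of promoters and in predicted ones in 30.2%. A match is a description of letters in a window and not of a bound site.

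Between mice, the members varied slightly more than other expressed genes, with a median CV of 0.0958 against 0.0790. For 207 members the highest of the 3 mice was mouse 2, for 141 mouse 1 and for 102 mouse 3, which is 46.0%, 31.3% and 22.7%, against 38.6%, 38.2% and 23.2% of the other expressed genes. The members also had lower levels, with a median of 39.7 CPM against 63.7, and the part of level in this difference was not tested.

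In HCT116 cells most of the same genes had a peak. A human gene of the same symbol in capitals was found for 352 members, of which 322 passed the filter on low RNA counts. Of these 322, 309 (96.0%, Wilson interval 93.2% to 97.6%) had a peak within 1 kb in the HCT116 list, which is 1 list for both marks and all libraries. For counterparts of genes with a colon H3K18cr peak it was 98.5% (98.1% to 98.7%) of 6411. Before the filter it was 320 of 352 members (90.9%) and 96.2% of the others. Before the filter, members without colon H3K4me3 had a peak in 37 of 54 cases (68.5%) and members with it in 283 of 298 (94.97%). Past the filter it was 34 of 39 (87.2%) and 275 of 283 (97.2%). In DMSO, H3K18cr at these peaks stood above input by medians of 1.75, 1.66 and 1.40 log2 units in the 3 libraries for members, and by 1.88, 1.80 and 1.61 for the others.

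The enteroendocrine and stem cell markers, REG3G and RETNLB had little or no RNA in this line. CHGA, INSL5, REG3G, RETNLB and ASCL2 had 0 counts in all 8 HCT116 RNA libraries, and CHGB, GCG, PYY, TPH1 and LGR5 stayed at or below 1.23 CPM in every library. FCGBP had 0.607 to 6.81 CPM over the DMSO libraries, and CD74 at most 0.594 CPM in any library. CHGA, GCG, TPH1, INSL5, REG3G, RETNLB and LGR5 had no HCT116 peak within 1 kb, while PYY, CHGB, ASCL2 and FCGBP had one. The helicase genes were high, with MCM7 at 725, 609, 642 and 530 CPM (scaled by TMM, a trimmed mean of log ratios) in the DMSO libraries.

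The RNA libraries of HCT116 held 35608533 to 53415604 counts, and MS275 was compared with DMSO in 4 libraries of each. Without regard to replicate number, edgeR's quasi-likelihood test called 1 of 14961 genes at an adjusted p under 0.05, a rise (0.00668% of genes tested), and no member in either direction. At an unadjusted p under 0.05 there were 5 higher and 6 lower members of 322, against 4.59% and 2.01% of all genes tested, and DESeq2 called 1 member, Nov, with a rise (adjusted p = 0.00824), where it called 0.519% of 24092 genes higher and 0.149% lower. The replicate numbers were taken to pair the libraries, which the labels do not state. Same-numbered libraries of the 2 treatments deviated together (r from 0.152 to 0.460). However, DMSO 2 with MS275 4 and DMSO 4 with MS275 2 reached 0.239 and 0.219, above the 0.152 of DMSO 2 with MS275 2. The calls of the blocked fit rest on this pairing. With replicate number as a block, 1171 genes were higher (7.83%) and 980 lower (6.55%).

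In that blocked fit 47 of the 322 members (14.6%) were lower and 16 (4.97%) higher under MS275. Each of them went the same way in all 4 pairs, but the fit drew on the same pairs, so this adds no support. The same holds for the pairs of single genes given below. For counterparts of genes with a colon H3K18cr peak the shares were 9.53% lower and 8.97% higher. Of the 30 tested members whose GENCODE interval came within 1 kb of a colon H3K18cr peak, 8 were higher and 1 lower. These 8 were Sipa1l2, Papss2, Glce, Il6st, Gatad2b, Tiam1, Arhgap5 and Phf3. Without the 30, 46 of 292 members (15.8%) were lower and 8 (2.74%) higher. The median log2 difference was -0.10 over the members and 0.01 over all genes. The difference between members and others was not tested.

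Of the 5 helicase genes 4 were lower in the blocked fit, and none passed without the block or by DESeq2. MCM7 had 725, 609, 642 and 530 CPM in DMSO libraries 1 to 4 and 604, 464, 514 and 442 CPM in the MS275 libraries of the same numbers. The MS275 value was the lower in each pair, although the groups overlapped. In the blocked edgeR fit, log2 MS275 over DMSO was -0.43 ± 0.06 (SE; adjusted p = 0.00139) for MCM5, -0.38 ± 0.06 (0.00170) for MCM2, -0.30 ± 0.05 (0.00375) for MCM7 and -0.26 ± 0.06 (0.00946) for MCM3. For MCM6 it was -0.19 ± 0.07 and did not pass (0.0678). In the same fit, where 6.55% of all genes were lower and 7.83% higher, 5 of the 12 members in replication families fell and none rose. Of the 9 in mitosis families CCNA2 and MAD2L1 fell, at -0.31 and -0.30, and CENPF rose, at 0.20. No member of either list passed without the block, by DESeq2 or with 1 replicate number left out.

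The largest differences lay elsewhere. NOV, a secreted CCN matrix protein, had 1.57, 2.32, 1.24 and 2.74 CPM in DMSO and 5.59, 7.65, 4.39 and 4.87 CPM in MS275, so that the groups did not overlap (log2 1.55 ± 0.34, blocked edgeR adjusted p = 0.00991). SIPA1L2, a Rap GTPase activating protein, rose by 0.90 ± 0.16 (0.00341). In colon its GENCODE interval held an H3K18cr peak, as did those of PAPSS2, GLCE and IL6ST, although the deposited intervals did not. PAPSS2 rose by 0.80 ± 0.15 (0.00429), with 25.6, 21.6, 8.73 and 35.6 CPM in DMSO and 33.9, 45.3, 20.7 and 50.3 CPM in MS275, higher in every pair and overlapping between groups. Il6st, the shared receptor chain of the interleukin 6 family, and Glce, a heparan sulfate epimerase, rose by 0.52 and 0.67 (named after their values were seen). Among called members the largest falls were those of SPRYD4 (-0.78 ± 0.19, 0.0181), the mannosyltransferase ALG1 (-0.64 ± 0.14, 0.00838) and ITPA, which clears inosine triphosphate (-0.54 ± 0.10, 0.00375). ALG1 had 46.9, 33.2, 51.1 and 31.6 CPM in DMSO and 33.5, 28.0, 23.7 and 18.2 CPM in MS275.

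**Figure D5:**
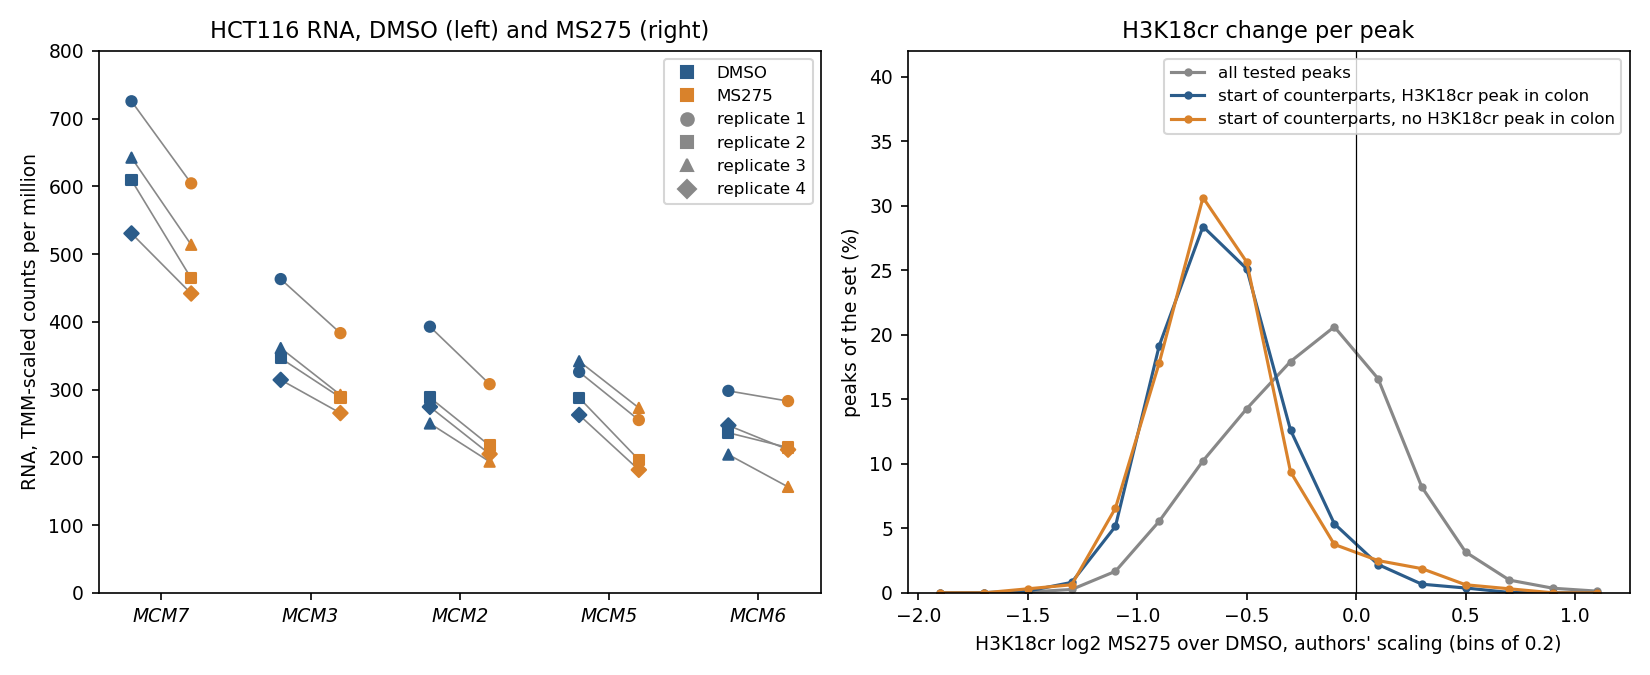
Left, RNA of 5 helicase genes in HCT116 in TMM-scaled CPM, DMSO left and MS275 right, with lines joining libraries of the same replicate number; MCM7 was lower under MS275 in each of 4 pairs. Right, log2 MS275 over DMSO of H3K18cr per peak in bins of 0.2, as percent of all tested peaks, of the peaks nearest the start of counterparts of members, and of those of other expressed genes; the medians were -0.20, -0.65 and -0.63.

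At the human counterparts, H3K18cr read counts fell under MS275. Values were log2 of reads scaled to a common library size, so a fall is a smaller share of the reads and need not be less of the mark. Under MS275 the study found more histone crotonylation by western blot. By ChIP with PCR it found more H3K18cr at the promoters and repeats it probed. It proposes that a larger rise of the marks outside gene starts could explain the smaller share at starts. By limma, 214 of 320 member peaks (66.9%) were lower and none higher. Of the peaks at counterparts of the other expressed genes 68.6% were lower and 0.0311% higher, and of all 40033 tested peaks 23.0% were lower and 0.232% higher. At an unadjusted p under 0.05, 256 of 320 member peaks were lower and none higher, against 80.0% lower and 0.109% higher at the other counterparts and 30.6% and 1.31% of all peaks. The 320 counterparts stood on 310 separate peaks. The median log2 difference was -0.65 for members, -0.63 for the others and -0.20 over all peaks, so the member share was close to the background of other gene starts. Scaling by TMM over the peaks moved the median of all peaks from -0.20 to 0.05, and then 113 of the 320 member peaks were lower and 1 higher, against 39.6% and 0.202% at the others and 11.1% and 1.96% of all peaks. Without replicate 1 the count of lower members was 76 (23.8%), against 25.7% at the other counterparts, and without replicate 2 it was 52 (16.2%), against 18.8%.

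H3K18ac, likewise measured as a share of the reads, fell at many of the same kind of peaks. Here 181 of 320 member peaks (56.6%) were lower and none higher by limma, against 56.3% lower and 0.0156% higher at the other counterparts and 16.3% lower and 0.262% higher of all 40098 tested peaks. At an unadjusted p under 0.05, 238 of 320 member peaks were lower and 2 higher, against 72.9% lower and 0.202% higher at the other counterparts and 25.0% and 1.45% of all peaks. The medians were -0.74 for members, -0.72 for the others and -0.19 over all peaks. With TMM scaling 171 member peaks were lower and 4 higher, against 57.9% and 0.794% at the other counterparts and 16.5% and 4.75% of all peaks. Without replicate 2 limma called no member and 1 of 40098 peaks, while the member median stayed at -0.68, and without replicate 3 it called 21 members (6.56%), against 8.22% of the other counterparts, with a member median of -0.43. With replicate number as a block 40 members were lower and none higher, against 6.42% lower and 0.0% higher at the other counterparts and 2.01% lower and 0.0224% higher of all peaks.

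The peaks at the helicase genes were among those that fell by limma. At MCM7, H3K18cr stood at 8.90, 8.80 and 8.69 log2 scaled reads in DMSO and 7.62, 7.35 and 7.94 in MS275, against 6.31 and 6.02 in the inputs, and the groups did not overlap. All 5 helicase peaks were lower for H3K18cr by limma, at -0.59 to -1.16 (4 of 5 with TMM scaling and 3 of 5 without replicate 2). All 5 were also lower for H3K18ac, at -0.91 to -1.39 (5 of 5 with TMM scaling, 2 of 5 with the replicate block, and none without replicate 2). Replication families had 11 of 12 member peaks lower for each mark, where 68.6% (H3K18cr) and 56.3% (H3K18ac) of the peaks at the other counterparts were lower. Without replicate 2 it was 4 of 12 for H3K18cr, against 18.8% at the other counterparts, and none for H3K18ac, and with the replicate block it was 3 of 12 for H3K18ac, against 6.42%.

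The largest falls of H3K18cr were at CCDC22 (-1.42, limma adjusted p = 0.000442), LAS1L (-1.26, 0.0119) and SMPD4 (-1.26, 0.000599). At CCDC22 the values were 5.61, 5.26 and 5.27 in DMSO and 3.98, 3.50 and 4.40 in MS275, against inputs of 1.97 and 4.09, so that the MS275 libraries stood near their input. LAS1L no longer passed with TMM scaling (-0.93), by edgeR on reads (-0.94) or without replicate 1 (-0.79) or 2 (-1.35). The largest falls of H3K18ac were at DKC1, the pseudouridine synthase of ribosomal RNA and telomerase RNA (-1.50, 3.63e-06), and at a peak shared by BYSL and MED20 (-1.44, 1.33e-05). Without replicate 2 neither passed, at -1.42 and -1.24. At NOV neither mark passed the test, with 0.17 ± 0.25 for H3K18ac (adjusted p = 0.767) and -0.02 ± 0.17 for H3K18cr (0.957), while its RNA rose.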

How the data were processed

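RNA tables were deposited as raw read counts per gene, which the authors made from directional poly(A) libraries by trimming, HiSat2 alignment and counting of unique reads in SEQMONK. The strand setting of the counting is not given in the sources used here. For mouse ChIP the deposited values are a signal, that is duplicate-free reads per peak scaled to the largest library, and for HCT116 ChIP the deposited values are log2 of such scaled reads. The authors called MACS peaks in SEQMONK as 1 list per table for all libraries. The submitters' processing notes name Trim Galore 0.4.2, Bowtie2 2.2.5 and TopHat2 2.0.12, and the builds are GRCm38 and GRCh38.

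CPM was computed over column totals, and distances from the gene intervals of the RNA table. Members and lists were chosen with earlier results of these data known. HCT116 RNA was fitted by edgeR 4.0.16 (quasi-likelihood, TMM, filterByExpr), with and without replicate number as a block, with DESeq2 1.42.0 as an alternative. Peaks were fitted by limma 3.58.1 on the deposited log2 values, and by edgeR on whole reads recovered from them (100% of values whole within 0.01 read, or within 0.01% above 100 reads). P-values were adjusted by Benjamini-Hochberg over all genes or peaks. The fits were also run on simulated data, the outcome of which is not reported here. In the pairing check, same-numbered HCT116 RNA libraries correlated in their deviations from group means at 0.226, 0.152, 0.434 and 0.460, all above 0.1. DMSO 2 with MS275 4 and DMSO 4 with MS275 2 reached 0.239 and 0.219, so the pairing of number 2 is less clear.

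Genes named were the 20 members of highest CPM without predicted genes, up to 4 of highest CPM per list, the 3 largest called rises and falls in HCT116, the genes at the thresholds, the 5 highest H3K4me3 signals and the 3 highest CV at 50 CPM or more. Further genes were named after their values were seen. Software was R 4.3.3, Python 3.11.15, numpy 2.4.6, pandas 2.3.3, scipy 1.17.1 and matplotlib 3.10.9. Counting intervals cover counting error only.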

Additional observations from a re-analysis of the deposited data

How the results depend on the processing

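The number of member genes was 703 with a minimum of 10 CPM, 157 with 50 CPM, 1648 with the H3K18cr list cut to its peaks of higher ChIP to input ratio, 524 when only overlap counted, 338 with a window of 5 kb, and 445 to 454 when 1 mouse was left out. Adding the GENCODE interval, an alternative chosen after seeing the data, gave 415. The share with H3K4me3 was 60% with the H3K4me3 list cut in the same way, 81.0% without predicted and numbered genes and 76.9% with the GENCODE interval. The median CV was 0.0761 to 0.0799 when 1 mouse was left out, where 2 remained.

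In HCT116 RNA, the replicate block gave 47 lower and 16 higher members where the fit without it gave 0 and 0, DESeq2 gave 1 higher, and leaving out 1 replicate number gave 0. For H3K18cr, TMM scaling gave 113 lower and 1 higher member peaks, edgeR on recovered reads 124 and 1, and leaving out 1 replicate gave 52 to 269 lower. For H3K18ac, TMM scaling and edgeR each gave 4 higher members, with 171 and 176 lower, and leaving out 1 replicate gave 0 to 259 lower. The deposited labels do not say that the ChIP replicate numbers pair the libraries, although the study used a paired test over gene starts, and same-numbered libraries correlated at 0.108, 0.074 and 0.230 for H3K18cr and at -0.207, 0.049 and -0.134 for H3K18ac. With the replicate block, 238 members were lower for H3K18cr and 40 for H3K18ac. The cause of these differences was not tested. Among the 11 main results and the 12 named gene results recomputed here none changed direction. Of the 12 H3K18cr peaks of replication family members, all below 0, 1 was above 0 with TMM scaling (0.13) and 1 without replicate 2 (0.02). In addition, TMM scaling turned the sign of the all-peak median, which went from -0.20 to 0.05 (H3K18cr) and from -0.19 to 0.07 (H3K18ac), and the RNA median over all genes, 0.01, was -0.04 without the filter, -0.03 with DESeq2, -0.0008 without replicate 2 and -0.01 without replicate 3.

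A peak that was not called is a limit of depth and of the caller and does not show that a mark is absent. The inputs had 1 or 2 libraries, the human genes were matched by symbol, and HCT116 peaks were called over both marks together, so a peak there is not evidence of H3K18cr alone.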
